A study of Homo sapiens with 4 samples.

Results

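IFIT1, IFIT2, IFIT3, ISG15, MX1, OAS1, OAS3, DDX58 and IFIH1 are genes of the innate response to foreign RNA, and all 9 were found by symbol among the 24934 gene rows of the expression table. The 4 libraries came from HEK-293, a long-established line of human embryonic kidney origin that carries adenovirus DNA, and were made 48 h after lipid transfection (Lipofectamine RNAi MAX) with 10 nM of siRNA. ZSCAN5A, a zinc finger protein gene, was targeted with si4 in one library and si5 in another, its paralog ZSCAN5B was targeted with si1, and the control received a scrambled siRNA. Each siRNA was represented by 1 library, so no difference below has a replicate check. All 4 cultures had been transfected with a duplex, and no untransfected or mock-transfected library was analysed here. The values therefore give the level of these genes in transfected cells and the difference between siRNAs, whereas a change from the untransfected state cannot be told apart from the resting level of the line.

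Cells recognise foreign RNA in the cytoplasm through the helicases RIG-I, encoded by DDX58, and MDA5, encoded by IFIH1. Both signal through the mitochondrial adaptor MAVS to the kinase TBK1 and the transcription factor IRF3, which can switch on interferon genes. Secreted interferon acts through its receptors and the JAK-STAT pathway, which ends at the interferon-stimulated response element (ISRE) of genes such as the IFIT family, ISG15, MX1 and the OAS family. DDX58 and IFIH1 are themselves interferon-induced. RIG-I is triggered by short duplexes whose ends carry triphosphates, and MDA5 recognises long double-stranded RNA. Short RNA can also act on the toll-like receptors TLR3, TLR7 and TLR8 in cells that have them.

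The duplexes that the cells received are shown as the sense sequence of their target sites, 5′ to 3′, since they are the RNA to which a sensor would respond; the sequence of the scrambled duplex was not used here.
si4: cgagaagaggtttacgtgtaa
si5: aagctagtcatccacaagaga
si1: acgtgtgcaataaatcattta
Each was 21 bases long, and 9 bases of si4, 9 of si5 and 6 of si1 were G or C. The si4 site (GRCh37 chr19:56733332-56733352) and the si5 site (chr19:56733307-56733327) stood close together in the coding part of exon 6 of ZSCAN5A, and the si1 site (chr19:56701591-56701611) in the coding part of exon 5 of ZSCAN5B, all on the minus strand. In the GENCODE transcripts none of the sequences had an exact match in another gene, and 0 of the 9 genes of the response carried one. The paper nevertheless reports, by qRT-PCR, less transcript of the paralog ZSCAN5D with si4 and si5. It also reports more ZSCAN5B transcript with si4, so these siRNAs did not change ZSCAN5A alone in that measure.

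ZSCAN5A stood at 0.730 FPKM in the si4 library, 0.713 in the si5 library, 2.53 in the si1 library and 2.42 in the control, which puts both ZSCAN5A libraries at about 30% of the control (30.2% and 29.5%). FPKM counts sequenced fragments relative to transcript length and to library size. ZSCAN5B stood at 0.0948 FPKM with si1 and 0.0903 in the control, or 16 against 15 fragments, so the si1 library is called here the library labelled ZSCAN5B knockdown. ZSCAN5B was lowest with si4, at 0.0331 FPKM (6 fragments), and stood at 0.0663 FPKM (17 fragments) with si5. With si1 the paper reports less ZSCAN5B transcript by qRT-PCR and less protein by western blot. With si4 it reports more ZSCAN5B transcript, so the measures differ, and the fragments here are few. The libraries held an estimated 58.6 M to 90.5 M fragments (M, mega), with si5 the deepest. The methods of the paper give a narrower range of reads per sample, which lies below the estimate for si5. HEK-293 markers such as VIM (270 to 359 FPKM), KRT8 (148 to 199 FPKM) and KRT18 (70.4 to 86.2 FPKM) were high, and all 9 of the HEK-293 markers examined reached 1 FPKM in at least 1 library. The kidney transcription factor gene PAX2 did so in the control alone, at 0.584 (si4), 0.615 (si5), 0.608 (si1) and 1.16 FPKM (control), and its log2 ratios of -0.95 and -0.93 were past 1.5-fold in both comparisons. Of 10 markers of blood and immune cells, whose FPKM summed to 2.60 to 3.99 per library, only the lysosomal gene CD68 reached 1 FPKM in a library, CD14 (0.371 to 0.476 FPKM) and LYZ (0.124 to 0.171 FPKM) came next, and MS4A1 was listed at 0 throughout. Of 6 reference genes none passed 1.5-fold, and the highest were GAPDH (2881 to 3537 FPKM), ACTB (552 to 718 FPKM) and PPIA (469 to 708 FPKM).

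The promoters of these genes were searched for the sequences through which interferon acts. RefSeq promoters on GRCh38.p14, from 250 bases before to 50 after the start, were used for 8 of the 9 genes, all but IFIT2. Of 35116 promoters in the same table, 3.57% held the core of the ISRE, GAAANNGAAA, on either strand. That share is of single promoters, whereas the members were counted as genes, some of them with several promoters. The core was found in at least 1 promoter of 6 genes, IFIT1, IFIT3, ISG15, MX1, OAS3 and IFIH1. The following windows show 1 match for each of these genes with 12 bases on either side, on the strand of the gene. Capitals mark the match, which reads TTTCNNTTTC where the core lies on the opposite strand.
IFIT1, chr10:89392495-89392528: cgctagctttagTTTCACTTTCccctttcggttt
IFIT3, chr10:89327863-89327896: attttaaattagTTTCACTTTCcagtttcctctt
ISG15, chr1:1013378-1013411: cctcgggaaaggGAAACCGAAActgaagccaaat
OAS3, chr12:112938319-112938352: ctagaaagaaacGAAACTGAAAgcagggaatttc
IFIH1, chr2:162318816-162318849: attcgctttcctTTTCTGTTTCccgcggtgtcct
MX1, chr21:41431842-41431875: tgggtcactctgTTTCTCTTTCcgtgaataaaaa
These matches began 116, 122, 107, 143, 153 and 196 bases before the start, in the order given. IFIH1 held 3 matches, of which 2 overlap. IFIT1, ISG15, OAS3 and each of the IFIT3 promoters held 2, and the 2 of ISG15 overlap. Of the 3 MX1 promoters, 2 held 1 match each. IFIH1 lies on the minus strand and the other 5 genes on the plus strand. The IFIT1 and IFIT3 windows share the same TTTCACTTTC, and the MX1 match nearest to a start and that of ISG15 share GAAACCGAAA. The single DDX58 promoter and the single OAS1 promoter had no match in this window. The gamma-activated site TTCNNNGAA, through which interferon gamma acts, occurred in OAS1 and in 1 MX1 promoter, and in 7.66% of all promoters.

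The genes were weakly expressed in all 4 libraries. Of the 9 genes, 5 were at 1 FPKM or above in every library, IFIT3 reached it with si1 only, and MX1, IFIT2 and OAS1 were below it throughout. ISG15 and IFIT1, the highest, lay between the 33.0 and 41.6 percentiles of the 13078 gene rows that reached 1 FPKM somewhere, so that most expressed genes stood above them in each library. The median of those rows was 9.58 to 9.95 FPKM. In bulk RNA, fewer cells expressing a gene and less of its RNA per cell cannot be told apart. The plot of the levels by library shows the order of the genes.

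**Figure D1:**
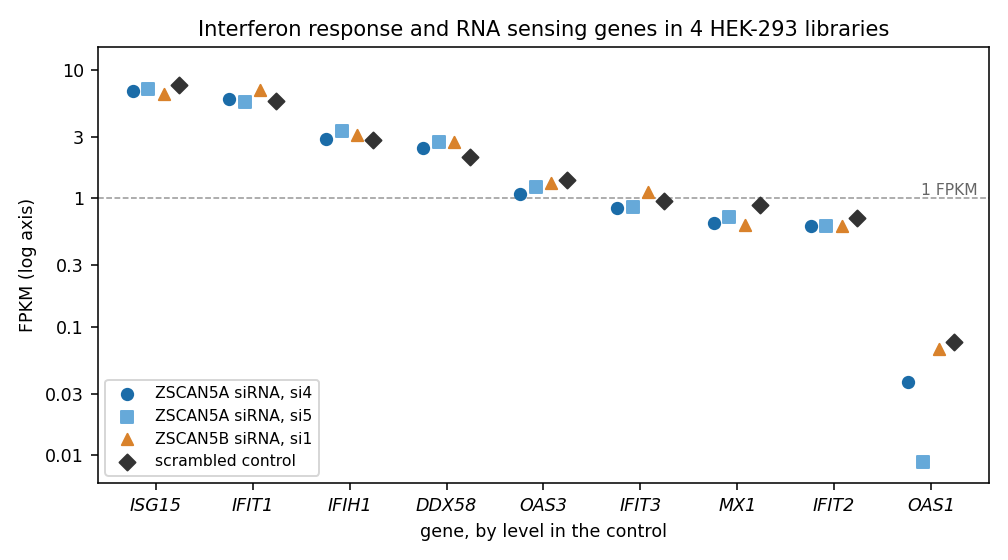
FPKM of the 9 genes (log axis) in each of the 4 libraries, 1 point per library, with genes ordered by their level in the scrambled control and a dashed line at 1 FPKM. The points of a gene lie close together except for OAS1, and ISG15 and IFIT1 stand highest at 5.66 to 7.64 FPKM.

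ISG15, a ubiquitin-like modifier that is attached to proteins in interferon-treated cells, was at 6.80 FPKM (si4), 7.14 (si5), 6.53 (si1) and 7.64 (control). IFIT1, which binds RNA whose cap lacks methylation, was at 5.95, 5.66, 6.996 and 5.76 FPKM in the same order. The ranges of both genes overlap, and IFIT1 was above ISG15 with si1 alone. IFIH1 followed with 2.88, 3.34, 3.12 and 2.84 FPKM, and DDX58 with 2.47, 2.76, 2.75 and 2.09 FPKM. The range of IFIH1 lay above that of DDX58 without overlap, so MDA5 transcript was the more abundant of the 2 sensors per length in every library. OAS3, an enzyme that makes the second messenger which activates RNase L, was at 1.08, 1.23, 1.32 and 1.39 FPKM.

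The other 4 genes were lower. IFIT3, a binding partner of IFIT1, was at 0.836 FPKM (si4), 0.861 (si5), 1.12 (si1) and 0.954 (control), a range that touches that of OAS3. MX1, a dynamin-like GTPase active against influenza virus, was at 0.642, 0.719, 0.615 and 0.882 FPKM. IFIT2, the IFIT family member linked to cell death, was at 0.609, 0.609, 0.603 and 0.706 FPKM. The range of MX1 overlaps those of IFIT3 and IFIT2, whereas IFIT3 lay above IFIT2 without overlap, and the order IFIT3, MX1, IFIT2 held within each of the 4 libraries. OAS1, a second enzyme of the OAS family, was listed at 0.0372, 0.00876, 0.0666 and 0.0755 FPKM, below every other member in each library, and this corresponds to an estimated 3.53, 1.18, 5.89 and 6.57 fragments.

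All 9 genes lie on the primary chromosomes of GRCh37. IFIT2 (chr10:91061706-91069033), IFIT3 (chr10:91087602-91100725) and IFIT1 (chr10:91152322-91163744) lie in one cluster on the plus strand, with 2 exons each in the reference transcript. OAS1 (chr12:113344739-113357712) and OAS3 (chr12:113376249-113411054) lie beside each other on the plus strand. ISG15 (chr1:948847-949919), with 2 exons, was the shortest at 636 transcript bases, and OAS3, with 16 exons, the longest at 6597. MX1 (chr21:42792520-42831141), DDX58 (chr9:32455300-32526322, minus strand) and IFIH1 (chr2:163123589-163175039, minus strand) have 17, 18 and 16 exons.

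The first comparison asked whether these genes differed between the ZSCAN5A siRNAs and the scrambled siRNA. None of the 5 members that reached 1 FPKM in this comparison differed by more than 1.5-fold between the mean of si4 and si5 and the control. Over all 12993 gene rows tested, 0.677% were higher and 3.11% lower by that rule, so a count of 0 among 5 genes is near what the background gives. The log2 ratios were 0.32 for DDX58, 0.13 for IFIH1, 0.01 for IFIT1, -0.13 for ISG15 and -0.27 for OAS3, and their median was 0.01, beside -0.02 over all genes. Below the expression limit they were -0.17 for IFIT3, -0.21 for IFIT2, -0.37 for MX1 and -1.72 for OAS1, the last resting on few fragments, and the median over all 9 genes was -0.17.

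The second comparison put the library labelled ZSCAN5B knockdown against the same control library, so the 2 comparisons share their denominator and are not independent. Again 0 of the 6 members tested passed 1.5-fold, against 0.844% higher and 3.17% lower among 12921 gene rows. The log2 ratios were 0.39 for DDX58, 0.28 for IFIT1, 0.23 for IFIT3, 0.13 for IFIH1, -0.07 for OAS3 and -0.23 for ISG15. Their median was 0.18, beside -0.01 over all genes. IFIT2, MX1 and OAS1, all below the expression limit, were at -0.23, -0.52 and -0.18, and the median over all 9 genes was -0.07.

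The control lay above all 3 siRNA libraries for 5 of the 9 genes (ISG15, OAS3, MX1, IFIT2 and OAS1), below all 3 for DDX58 and IFIH1, and between them for IFIT1 and IFIT3. Among the 6 members that reached 1 FPKM it was above for 2 and below for 2, where 36.2% and 29.9% of all 13078 rows at this level had the control above or below. With 1 library against 3, an exact one-sided permutation test cannot go under p = 0.25, so no test was made. The members thus did not lie on one side of the control.

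Counting error was set beside each ratio by recovering fragments from the table. Low FPKM values of a gene stood in whole-number proportions across libraries, which gave whole fragments for IFIT1, IFIT2, ISG15, OAS3, DDX58 and IFIH1. For IFIT3, MX1 and OAS1 the fragments were estimated from transcript length instead. The 95% intervals given here are exact Clopper-Pearson intervals, were not adjusted for the number of values, and cover counting error only, not differences between cultures, and sequenced fragments are not independent molecules. Of the 18 values of the 6 genes with whole fragments, the interval left out a ratio of 1 in 7, with 5 above the control and 2 below. DDX58 gave a value above the control in each siRNA library. Over 4095 gene rows with whole fragments, the share per library was 7.96 to 10.2% above and 17.9 to 23.6% below. These rows needed only 30 fragments in total, whereas the 6 members had 118 to 1137 in each library. Intervals narrow with more fragments, so the shares are not at the depth of the members.

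**Figure D2:**
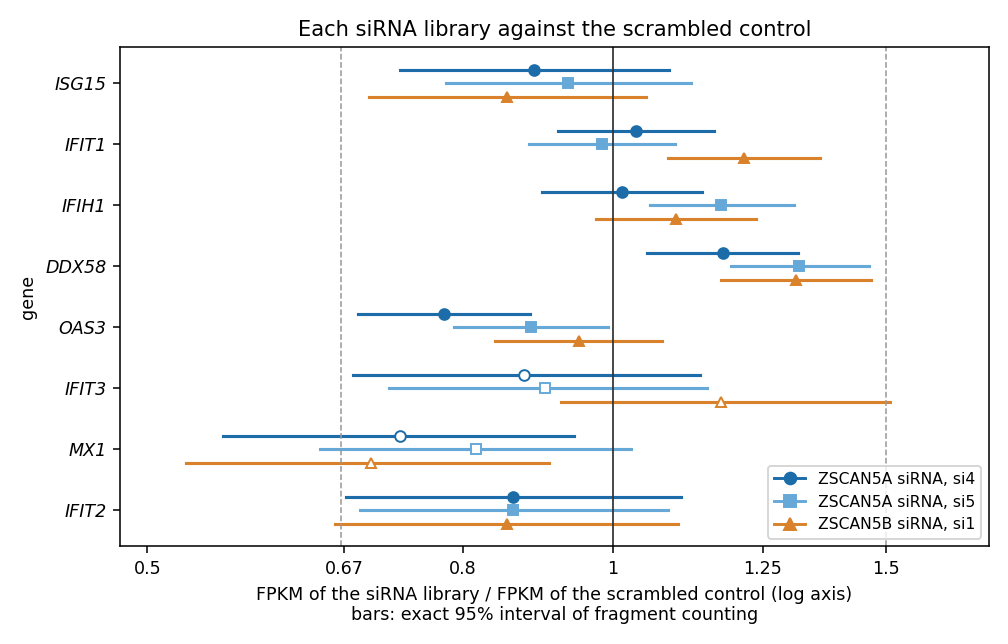
Ratio of each siRNA library to the scrambled control (log axis) for 8 of the genes, with bars for the exact 95% counting interval, filled points where whole fragments were recovered and open points where they were estimated, and dashed lines at 1.5-fold in either direction; OAS1, with 1.18 to 6.57 estimated fragments, is left out. Every point lies inside the 1.5-fold lines, and DDX58 is the gene whose 3 bars all lie to the right of 1.

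DDX58 was the member whose interval lay above 1 in all 3 siRNA libraries. Before depth was taken into account, si4 gave 717 fragments, si5 1137, si1 744 and the control 558. Relative to the control its level was 118% with si4 (interval 105 to 132%), 132% with si5 (119 to 146%) and 131% with si1 (117 to 147%). Its ratio was above that of 94.7% of the genes in the ZSCAN5A comparison and 96.7% in the ZSCAN5B comparison. Of these 4095 gene rows, each with at least 30 fragments in total, 2.44% had an interval above the control in all 3 libraries and 10.1% below it. Among the 1148 rows with at least 300 fragments in the control, nearer to the depth of DDX58, these shares were 4.79% and 23.5%. The fragments of DDX58 were found up to a common factor, and the factor of 3 used here was set from its transcript length, so the width of its intervals rests on that factor and the ratios do not.

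IFIH1 had 592 (si4), 971 (si5), 597 (si1) and 535 (control) fragments, and the genes below are given in the same order. It stood at 101% (90.0 to 114%), 118% (106 to 131%) and 110% (97.55 to 124%) of the control, so the interval left out 1 with si5 and not with si4 or si1. IFIT1 had 629, 846, 688 and 557 fragments and stood at 103% (92.1 to 116%), 98.3% (88.3 to 110%) and 122% (109 to 136%). Its interval left out 1 with si1 and not with the ZSCAN5A siRNAs, and the difference between the siRNAs was not tested. With si1 the log2 ratio of IFIT1 was 0.28, where genes of the same length and GC content had a median of 0.14.

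OAS3 had 445, 716, 506 and 524 fragments. It stood at 77.8% of the control with si4 (68.4 to 88.4%), 88.5% with si5 (78.9 to 99.2%) and 95.02% with si1 (83.9 to 108%). Both ZSCAN5A libraries were thus below the control beyond counting error as deposited, and si1 was not. Relative to genes of the same length and GC content, however, the log2 values of OAS3 were -0.01 (si4), 0.16 (si5) and 0.26 (si1). ISG15, with 199, 296, 178 and 205 fragments, stood at 88.9% (72.8 to 109%), 93.5% (78.0 to 112%) and 85.4% (69.5 to 105%). IFIT2, with 128, 181, 118 and 136 fragments, stood at 86.2% (67.2 to 111%), 86.2% (68.6 to 108%) and 85.4% (66.1 to 110%). For these last 2 genes a shift of this size was not detectable at this depth in any library, and the lower ends of the intervals were 66.1 to 78.0% of the control.

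Of the genes with estimated fragments, MX1 stood at 72.8% of the control with si4 (56.0 to 94.3%), 81.5% with si5 (64.6 to 103%) and 69.8% with si1 (52.9 to 90.9%). IFIT3 stood at 87.6% (67.9 to 114%), 90.3% (71.6 to 115%) and 117% (92.5 to 151%), with each interval including 1. OAS1 had 49.2% (11.2 to 206%), 11.6% (0.205 to 72.0%) and 88.2% (23.4 to 293%) of a control level that itself rests on 6.57 estimated fragments.

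The spread between genes of the same level is wider than most of these shifts. Among the 2389 gene rows with a mean of 2 to 5 FPKM, the central 95% of log2 ratios to the control ran from -0.84 to 0.45 with si4, from -0.69 to 0.36 with si5 and from -0.69 to 0.39 with si1. Of 24 member values (8 genes in 3 libraries, OAS1 left out), 1 lay outside the range of its level, that of DDX58 with si5 at 0.40. The value of DDX58 with si1, 0.392, was close to the upper limit of 0.394. The 2 ZSCAN5A siRNAs differed from each other, as log2 of si5 over si4, by 0.21 for IFIH1, 0.19 for OAS3, 0.16 for DDX58 and MX1, 0.07 for ISG15, 0.04 for IFIT3 and -0.07 for IFIT1. The values of IFIT2 were nearly equal. For DDX58 this difference was smaller than its log2 ratio to the control with either siRNA (0.24 and 0.40), and for IFIH1 it was larger than the 0.13 of their mean.

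Transcript length moved with the ratios across the whole table. In the ZSCAN5A comparison the median log2 ratio went from 0.17 in the shortest of 10 length bins (median 784 bases) to -0.16 in the longest (8097 bases), and in the ZSCAN5B comparison from 0.18 to -0.16. Among genes of the same length and GC content as OAS3, the medians were -0.34 and -0.33, lower than the values of OAS3 itself. Subtracting these medians moved OAS3 from -0.27 to 0.07 and from -0.07 to 0.26, which turned its direction in both comparisons. Length alone did not do so with the ZSCAN5A siRNAs, where the length bin of OAS3 had a median of -0.16. GC content was not examined alone. ISG15 went the other way, from -0.13 to -0.27 and from -0.23 to -0.35. DDX58 moved little, from 0.32 to 0.31 and from 0.39 to 0.38. No member passed 1.5-fold after this step among those at 1 FPKM or above.

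**Figure D3:**
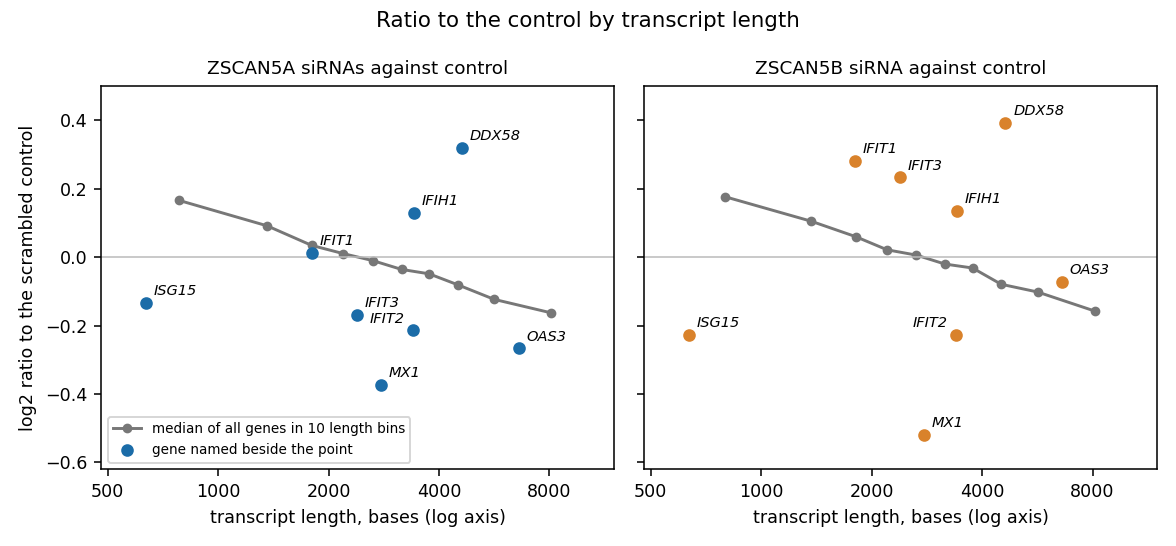
Log2 ratio to the scrambled control against transcript length in bases (log axis) for 8 of the genes (coloured points; OAS1 left out), with grey points joined for the median of all genes at 1 FPKM or above in each of 10 length bins, for the ZSCAN5A siRNAs (left) and the ZSCAN5B siRNA (right). The grey line falls from 0.17 and 0.18 to -0.16 with length, ISG15 and MX1 lie under it in both panels, and DDX58 and IFIH1 lie over it in both.

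The rest of the pathway was read from lists of 157 further genes. At 1 FPKM or above, 99 of them were measured in the ZSCAN5A comparison, of which 1 was higher and 2 lower by more than 1.5-fold, and 98 in the ZSCAN5B comparison, with 1 higher and 1 lower. The medians were -0.09 and -0.04. The control was above all 3 siRNA libraries for 46 of the 99 genes and below them for 20, or 46.5% and 20.2%, beside the 36.2% and 29.9% of all rows.

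Among 13 other RNA sensors and cofactors, 8 reached 1 FPKM. The highest were the helicase DHX9 (67.6 to 85.6 FPKM), the RNA-editing enzyme ADAR (43.7 to 49.0 FPKM) and PRKRA, an activator of the kinase PKR (27.0 to 28.4 FPKM). None passed 1.5-fold in either comparison, with medians of -0.08 and -0.01. TLR3 was low but detected, with 44, 114, 59 and 52 fragments (si4, si5, si1, control), and its interval left out 1 with si5 alone, at 142% of the control (101 to 201%). TLR7, with 0, 1, 0 and 2 fragments, and TLR8, with 1, 1, 0 and 0, were near the floor. DHX58, which encodes the RIG-I relative LGP2, had 11, 22, 7 and 18 fragments, far fewer than DDX58 or IFIH1.

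The adaptors, kinases and transcription factors between sensor and interferon gene were present, with 17 of 18 genes at 1 FPKM or above. The highest were IRF3 (27.9 to 34.9 FPKM), the kinase CHUK (19.0 to 23.5 FPKM) and TBK1 (12.8 to 15.7 FPKM). None passed 1.5-fold in the comparisons, and the medians were -0.17 and -0.06. MAVS, the adaptor of both sensors, was at 10.99, 9.74, 10.7 and 14.6 FPKM (si4, si5, si1, control). With fragments estimated from length it stood at 75.2% (73.0 to 77.4%), 66.7% (64.8 to 68.5%) and 73.1% (71.0 to 75.4%) of the control. When si5 was taken alone it was 1.50017-fold lower, only just past 1.5-fold. The width of these intervals rests on that length. Its transcript of 11731 bases falls in the longest of the 10 length bins, where the median log2 ratio was -0.16 in both comparisons. Of rows with whole fragments and at least 300 in the control, 23.5% had an interval below the control in all 3 libraries. MAVS had an estimated 9922 fragments in the control, so this share is not at its depth. The control was above the 3 siRNA libraries for 10 of the 17. Of 12 receptor and JAK-STAT genes all reached 1 FPKM, led by IFNGR2 (36.9 to 40.3 FPKM) and JAK1 (25.1 to 28.2 FPKM), and none passed 1.5-fold. Their medians were -0.10 and -0.05. Among 11 negative regulators, led by TRIM27 (27.3 to 29.5 FPKM), PTPN1 (14.3 to 18.3 FPKM) and the ISG15 protease gene USP18 (14.4 to 16.7 FPKM), 10 reached the limit and none passed 1.5-fold, with medians of -0.08 and -0.11.

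The interferon genes themselves were at the floor. None of 21 ligand genes reached 1 FPKM, and the highest value was 0.106 FPKM, for IFNE with si1. IFNB1 had 0, 1, 0 and 1 fragments (si4, si5, si1, control), and 8 genes were listed at 0 in all 4 libraries, among them IFNA2, IFNA4, IFNA6, IFNA7 and IFNG. IL29 had 2, 0, 0 and 1 fragments and IFNA8 had 0, 1, 2 and 1. No ligand gene had more than 8 fragments in a library. A count of 0 allows up to 3 fragments, so the ligands listed at 0 were not detectable at this depth rather than absent.

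Of 50 other interferon-induced genes, 35 reached 1 FPKM. The highest were LGALS3BP (117 to 127 FPKM), LY6E (61.6 to 69.3 FPKM) and IFI16 (30.5 to 35.8 FPKM). LAMP3, which encodes a lysosomal membrane protein, passed the rule in both comparisons and in the downward direction. It stood at 1.28, 1.17, 1.53 and 2.38 FPKM (si4, si5, si1, control), or 256, 332, 285 and 437 fragments. Its log2 ratios were -0.96 with the ZSCAN5A siRNAs and -0.64 with si1, and the intervals ran from 45.8 to 62.8% of the control with si4, 42.5 to 56.9% with si5 and 55.1 to 74.7% with si1. The medians of the list were -0.12 and -0.03, with 8 of 35 genes above 0 in the ZSCAN5A comparison and 14 of 35 in the ZSCAN5B comparison, where 46.7% and 48.5% of all gene rows tested were above 0. Taken alone, si4 had 8 of 35 above 0 (median -0.22) and si5 had 16 of 35 (median -0.01). Over all gene rows these shares were 47.9% with si4 and 45.0% with si5, so the low share was that of si4 and not of si5. One gene, RTP4, was listed at 0 in all 4 libraries.

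RSAD2, which encodes the antiviral enzyme viperin, belongs to the same list but lay under the expression limit, and it is named here because of its values. It stood at 0.0568, 0.0569, 0.0458 and 0.243 FPKM (si4, si5, si1, control), or 12, 17, 9 and 47 whole fragments. All 3 siRNA libraries were low and the control was high. The level was 23.4% of the control with si4 (interval 11.3 to 44.8%), 23.4% with si5 (12.6 to 41.5%) and 18.8% with si1 (8.12 to 38.9%). Among the 4095 gene rows with whole fragments and at least 30 in total, RSAD2 was the 1 row (0.0244%) whose interval ended under 50% of the control in all 3 libraries. In the other direction 0.0977% of rows had an interval that began over 2-fold above it. This rule was written with the values of RSAD2 in view, so the share is a description. Of the RSAD2 promoters in the RefSeq table, 1 held the ISRE core, beginning 145 bases before the start.
RSAD2, chr2:6877620-6877653: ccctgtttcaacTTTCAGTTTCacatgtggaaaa

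Antigen presentation genes, which interferon also raises, included B2M (269 to 320 FPKM), HLA-C (262 to 299 FPKM) and HLA-B (85.8 to 92.7 FPKM). In the ZSCAN5A comparison, PSMB9, an immunoproteasome subunit gene, was higher with a log2 ratio of 0.81, and TAPBP, the gene of the peptide loading factor tapasin, was lower with -0.82. PSMB9 rested on 58, 86, 41 and 31 fragments, with intervals of 109 to 274%, 118 to 280% and 79.6 to 215% of the control. TAPBP stood at 7.0001, 8.65, 9.27 and 13.8 FPKM, the control being the highest. The medians of this list, 0.03 and -0.02, were near 0.

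Inflammatory and NF-kB target genes were led by ATF3 (23.7 to 27.4 FPKM), NFKBIA (8.80 to 11.1 FPKM) and NFKB2 (5.90 to 6.77 FPKM), and 6 of 16 reached 1 FPKM. The chemokine gene CCL2 was higher with si1 by a log2 ratio of 0.69. It had 72, 85, 72 and 44 fragments (si4, si5, si1, control), and the intervals were 102 to 223%, 85.9 to 184% and 109 to 240%. CXCL10, a chemokine gene strongly raised by interferon in many cells, had 1, 2, 3 and 2 fragments, and CXCL9 was listed at 0 throughout.

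**Figure D4:**
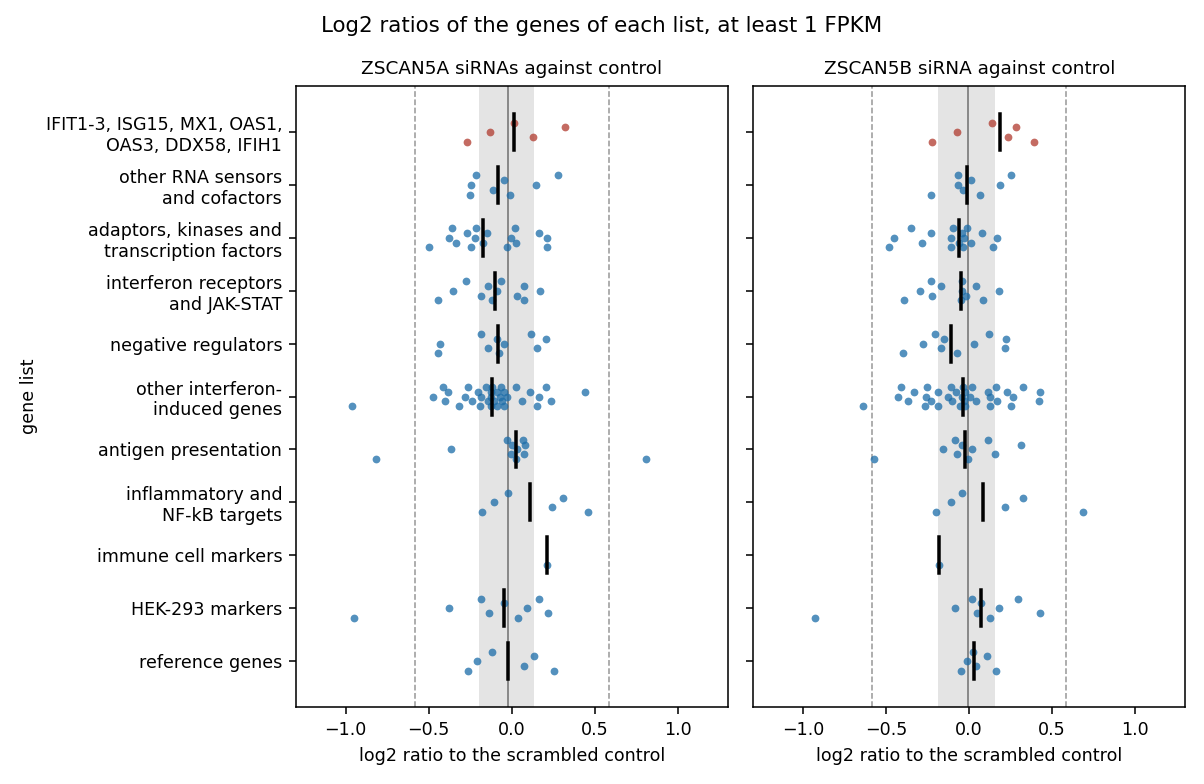
Log2 ratio to the scrambled control of each gene at 1 FPKM or above (points) in 11 gene lists, for the ZSCAN5A siRNAs (left) and the ZSCAN5B siRNA (right), with a black bar for the median of each list, a grey band from the lower to the upper quartile of all genes tested, a grey line for their median and dashed lines at 1.5-fold. The top row, in red, holds 5 of the 9 genes on the left and 6 on the right, and its points stay between the dashed lines; LAMP3, TAPBP, PSMB9, CCL2 and the HEK-293 marker PAX2 lie beyond them in at least 1 panel.

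The centred profile of the 6 members at 1 FPKM or above, on log2(FPKM + 0.1), was -0.09 (si4), 0.01 (si5), 0.10 (si1) and -0.02 (control). The 5 genes nearest to it by Euclidean distance over the 4 libraries were PAPSS1, RAD54B, CSDC2, DENND4A and VPS8, at distances of 0.00196 to 0.0183, and none was in the pathway lists. A flat profile has many neighbours, and 600 of 13014 genes lay within a distance of 0.1.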

How the data were processed

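RNA-seq libraries of siRNA-treated HEK-293 cells were analysed, 1 per siRNA. The authors deposited 1 table of FPKM values on hg19 (GRCh37). Per the labels, the submitters' processing notes name CASAVA 1.8.2, Trimmomatic 0.30, TopHat2 2.1.0 and Cufflinks 2.2.1; the annotation is not given in the sources used here, and labels and methods name different stranded mRNA kits. The table holds 0 other per-sample columns. FPKM was used as deposited.

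The members and lists were chosen with earlier results of these data known. The mean of si4 and si5, or si1, was divided by the control, without a pseudocount. A gene was called past 1.5-fold where a library compared reached 1 FPKM and neither side was 0. Genes were named by rule: all members, the targeted genes, and in each list those past the limit, the 3 highest and up to 5 at 0; any other gene (the toll-like receptors, DHX58, MAVS, IFNB1, CXCL10, RSAD2 and those of the closing section) was chosen after its values were seen. One gene that the rule names is not reported here.

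Relative depth was the most frequent ratio of values under 0.1 FPKM. Whole fragments were sought with every library within 0.01 of a whole number, up to 1000, and a common factor from transcript length. They were found for 49.7% of rows from 1 to 3 FPKM and 15.7% from 3 to 10 FPKM. This wider search was chosen after seeing the data. Other fragments were estimated from GENCODE length (21099 symbols matched, 1885 of them by an older symbol), minus 144 bases. Starts are 1-based. Scripts were tested on simulated data. Python 3.11.15, SciPy 1.17.1, R 4.3.3 and limma 3.58.1 were used. Alternatives covered the expression limit, pseudocount, scaling, fold limit, each ZSCAN5A siRNA alone, limma, and, added after seeing the data, length and GC.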

Additional observations from a re-analysis of the deposited data

How the results depend on the processing

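The count of members past the fold limit was 0 in the main setting of both comparisons and stayed 0 under the limits and pseudocounts tried, both scalings, a fold limit of 2, each ZSCAN5A siRNA alone, the length and GC correction, and limma, with 1 exception. Without an expression limit it was 1 for the ZSCAN5A siRNAs, OAS1, at 1.18 to 6.57 estimated fragments. With limma on log2(FPKM + 1), the log2 changes of the 6 members ran from -0.15 (OAS3) to 0.22 (DDX58) for the ZSCAN5A siRNAs. For the ZSCAN5B siRNA they ran from -0.20 (ISG15) to 0.28 (DDX58). That fit has 1 residual degree of freedom and assumes that the single libraries vary as si4 and si5 do, so no p-value is given. The median log2 ratio of members for the ZSCAN5A siRNAs, 0.01, was -0.17 without an expression limit, -0.15 with a limit of 0.1 FPKM, 0.0513 with median-ratio scaling, 0.0700 with the length and GC correction, and from -0.0242 to 0.0194 with 1 siRNA left out. For the ZSCAN5B siRNA, 0.18 became -0.0737 without a limit, 0.0307 with a limit of 0.1 FPKM and, with a pseudocount of 1, 0.11. These moves between limits follow from which of the weak genes enter. Of 144 member values under alternatives, 4 had another sign, namely OAS3 in both comparisons and IFIT1 with the ZSCAN5A siRNAs under the length and GC correction, and IFIT1 with si5 alone. No paired analysis was possible because the groups share fewer than 2 replicate numbers.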

Other observations

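CMPK2, TRIM22 and IRF1, chosen after their values were seen, had their highest level in the control. IFIT5, SAMD9, IFI16 and LY6E went the other way. On estimated fragments, the intervals of these genes lay above the control in all 3 siRNA libraries. Of 126 pathway genes with fragments, whole or estimated, the interval lay below the control in all 3 libraries for 23 and above it for 9. At 1 FPKM or above, the control was above all 3 siRNA libraries for 14 of 35 other interferon-induced genes. It was below all 3 for 5 of them. CMPK2 and TRIM22 did not reach 1 FPKM and IRF1 belongs to another list, so these genes are not among the 35. Over all rows at this level the shares were 36.2% above and 29.9% below. CMPK2, the neighbour of RSAD2 on chromosome 2 (GRCh37 chr2:6980684-7006766, minus strand, beside chr2:7017796-7038363, plus strand), was at 0.679, 0.710, 0.745 and 0.958 FPKM in the si4, si5, si1 and control libraries. TRIM22, an interferon-induced ubiquitin ligase gene, was at 0.0544, 0.0575, 0.0468 and 0.143 FPKM, or an estimated 9.56, 14.3, 7.64 and 22.9 fragments. IRF1, a transcription factor gene raised by interferon, had 317, 488, 305 and 383 fragments, and its intervals ended at 88.2%, 94.6% and 91.3% of the control. Of rows with whole fragments and at least 300 in the control, 23.5% had an interval below it in all 3 libraries and 4.79% above it. Whether the higher RSAD2, LAMP3 and TRIM22 values belong to the scrambled duplex, to its culture or to the 3 targeting duplexes cannot be told apart with 1 control library.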
